A study of Mus musculus with 6 samples.

Results

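The 10 genes described here belong to the integrated stress response and to serine and asparagine synthesis, and were read in ribosome-bound mRNA from mouse brain: Atf4, Asns, Ddit3, Trib3, Chac1, Psat1, Phgdh, Psph, Shmt2 and Mthfd2. They were taken by name, and all 10 were found among the 26264 genes of the authors' TPM table (a level per transcript length that sums to the same total in each library). The RNA came from Gfap-Cre; RiboTag mice, in which ribosomes of cells with Cre carry an HA tag and are pulled down with an antibody. The Gfap promoter, active in astrocytes, drove Cre, and the labels give the captured cells as astrocytes with some neurons and oligodendrocytes. The groups were 3 libraries from mice on PLX5622 diet (1200 ppm, 1 month) and 3 from mice on control diet for the same time, called biological replicates in the labels. PLX5622 inhibits Csf1r, a receptor that microglia need to survive, and the series asks whether it shifts cholesterol metabolism in these cells. All mice of both diets carried the same Cre and tag, and no age, sex or pooling of animals is stated in the labels.

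In the integrated stress response, kinases that sense amino acid lack, unfolded protein, viral RNA or heme lack phosphorylate the translation factor eIF2. General translation then slows, while the mRNA of the transcription factor Atf4 is translated more because of short upstream reading frames. Atf4 with C/EBP partners induces genes for amino acid synthesis and uptake, among them asparagine synthetase and the serine pathway. In the brain, L-serine is made mainly by astrocytes, which supply it to neurons for D-serine, glycine and lipid synthesis. The values here are levels of ribosome-bound mRNA, so Atf4 protein was not measured.

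Atf4 and C/EBP proteins bind a composite element, the C/EBP-ATF response element, in several of these genes. Its core was held by 3 of the 10 genes, as TGATGNAA on either strand, within the RefSeq promoter window of 250 bases before to 50 after the start (11 windows for 10 genes, build GRCm38.p6). In the whole RefSeq promoter table, 4.51% of 27025 gene symbols and 3.97% of 32851 windows held it. The stretches of Asns, Chac1 and Trib3 with the match are shown because they carry the element, and that of Psat1 because its values, with those of Asns, were the ones that separated by diet label. Capitals mark the core, each sequence runs 5′ to 3′ on the gene's strand, and positions count from the RefSeq start.
Asns: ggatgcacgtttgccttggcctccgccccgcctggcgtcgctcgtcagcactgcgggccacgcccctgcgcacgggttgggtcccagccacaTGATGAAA
Chac1: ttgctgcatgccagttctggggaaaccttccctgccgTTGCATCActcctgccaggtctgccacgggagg
Trib3: gcagcagattagctcaggtTTACATCAgcc
Psat1: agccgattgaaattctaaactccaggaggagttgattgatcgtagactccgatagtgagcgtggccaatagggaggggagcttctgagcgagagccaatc
The Asns stretch lies at chr6:7693225-7693324 on the minus strand, with the core at positions -23 to -16. The Chac1 stretch lies at chr2:119351012-119351081 on the plus strand, with the core on the opposite strand at -193 to -186. The Trib3 stretch lies at chr2:152344036-152344065 on the minus strand, with the core on the opposite strand at 15 to 22, inside the transcript. The Psat1 stretch, at chr19:15925060-15925159 on the minus strand, holds none. GTTACA, the second element described in the human ASNS promoter, was found on either strand in Asns alone of the 10 genes, at -3 to 3, and in 8.25% of all windows. A match of letters is a description and not a site of binding.

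Some libraries went against their diet label. Csf1r stood at 0.811, 0.0208 and 2.05 TPM under the PLX5622 label (libraries 1, 2 and 3), and at 4.33, 4.27 and 0.118 TPM under the control label. The 11 microglia markers summed to 28.6 to 53.5 TPM under the PLX5622 label and 36.1 to 125 TPM under the control label, with 3 of the 11 at 0 in some library. Log2 fold changes of the authors' deposited table correlated with the labelled difference at r = 0.527 across 13196 genes, and at 0.996 once the libraries labelled control 3 and PLX5622 3 were exchanged. That table does not name its numerator. Both correlations with PLX5622 minus control were positive, and Csf1r was at -3.61 in it (SE 1.24). Its values therefore run as PLX5622 over control. Because of the exchange, the authors' values are given apart from the values by label. The differences of the tested genes among the 10 and the medians of the pathway lists by label are also given without the libraries labelled control 3 and PLX5622 3. Medians of the cell type marker lists were not computed that way. Where groups are said not to overlap, this holds by label only, and they would overlap after that exchange. Library depth is not kept by TPM and is unknown.

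Of the 10 genes, Phgdh, phosphoglycerate dehydrogenase, the first enzyme of serine synthesis, had the highest level, 934.7 to 1135 TPM over the 6 libraries, and ranked 105th of all genes by its mean. Psat1, phosphoserine aminotransferase, the second enzyme, followed at 276 to 585 TPM. Psph, phosphoserine phosphatase, the last enzyme, was at 137 to 153 TPM and overlapped Atf4, at 136 to 198 TPM. Ddit3 came next at 63.8 to 95.5 TPM, then Shmt2 at 37.2 to 48.5 TPM, Asns at 14.2 to 32.0 TPM, Mthfd2 at 5.41 to 9.09 TPM and Chac1 at 1.10 to 3.23 TPM. Trib3 was lowest, at 0.0787 to 0.306 TPM. Apart from Atf4 and Psph, no neighbours in this order overlapped over the 6 libraries.

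**Figure D1:**
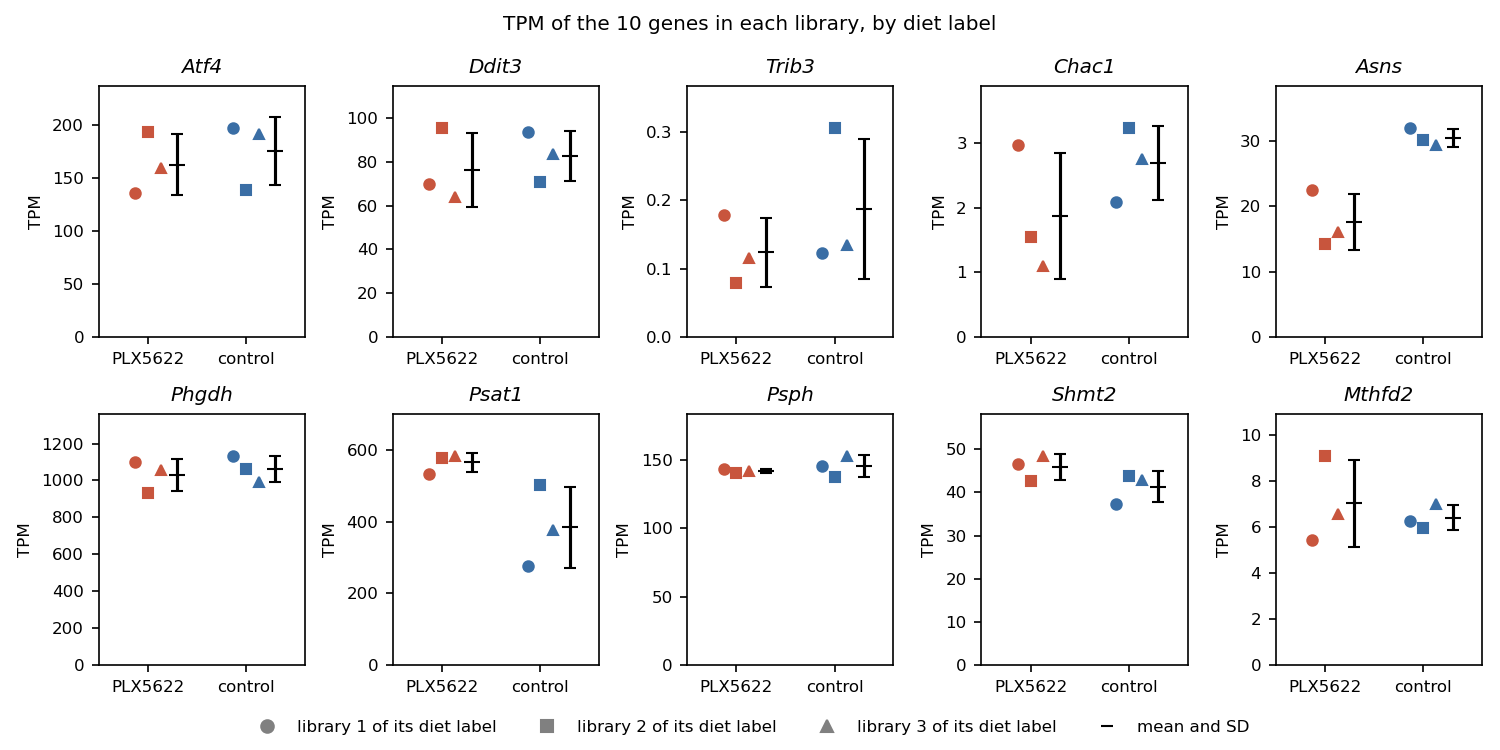
TPM of each of the 10 genes (y axis, linear from 0, own scale per gene) in the 3 libraries labelled PLX5622 (left, red) and the 3 labelled control (right, blue); symbols mark the library number and black bars the mean and SD. Asns lies between 14.2 and 22.4 TPM under the PLX5622 label and above 29 TPM under the control label, Psat1 shows the opposite order, and the other 8 genes overlap.

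By diet label, limma on log2(TPM + 1) called 0 of the 9 genes tested at an adjusted p of 0.05, against 0% of the 13084 genes that averaged 1 TPM or more. At an unadjusted p under 0.05, Psat1 was higher and Asns lower. Over all tested genes, 14.7% were higher and 8.02% lower at that level. The same pair, 1 gene in each direction, had groups that did not overlap, as did 19.4% (higher) and 9.39% (lower) of all tested genes. A share of 1 in 9 in either direction is near this background. The median difference of the 9 genes was -0.05 on the log2 scale, with 3 positive, and that of all tested genes was 0.09, with 61.1% positive. With size-factor scaling these medians were -0.14 and 0.01. With PLX5622 3 and control 3 both left out, 5 of the 9 were positive and their median was 0.00090.

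Asns, asparagine synthetase, which makes asparagine from aspartate and glutamine, had the largest difference of the 9 tested. Libraries labelled PLX5622 1, 2 and 3 held 22.4, 14.2 and 16.1 TPM, and those labelled control 1, 2 and 3 held 32.0, 30.1 and 29.3 TPM. All 3 PLX5622 libraries were below all 3 control libraries, and the control values lay closer together. With PLX5622 3 (16.1 TPM) and control 3 (29.3 TPM) exchanged, the groups would overlap. The means by label were 17.6 ± 4.30 and 30.5 ± 1.37 TPM (SD, n = 3 each), a ratio of 0.577. The log2 difference was -0.78 ± 0.17 (SE, 95% interval -1.16 to -0.41; limma adjusted p = 0.205), larger than the spread within the labels but short of the threshold over all genes. Without the library labelled control 2 it was called (-0.79, limma adjusted p = 0.00710), in a fit that called 28.7% of all genes. Without the libraries labelled control 3 and PLX5622 3 the difference was -0.76 ± 0.28 (limma adjusted p = 0.855). For Asns the authors' deposited table had -0.32 (SE 0.36, p = 0.366).

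Neuron markers were also lower by label. Their sum over 10 genes was 1085 to 1657 TPM under the PLX5622 label and 1783 to 2094 TPM under the control label, without overlap. With PLX5622 3 (1122 TPM) and control 3 (1849 TPM) exchanged, the sums would overlap. None of the 10 was at 0, and by label all 10 had negative differences, with a median of -0.53. In Snap25, a synaptic vesicle fusion protein and the most abundant of them, the difference was -0.62 ± 0.18 (log2, SE; limma adjusted p = 0.205). The median of these 10 neuron markers in the authors' deposited table was -0.21. Ependyma and choroid plexus markers were lower too in 6 of 7 tested genes (median -0.49), while 61.1% of all tested genes were positive. At an unadjusted limma p under 0.05, 3 of the 7 were lower, beside 8.02% of all tested genes. The sum of the 8 ependyma and choroid plexus genes overlapped, at 210 to 453 TPM under the PLX5622 label and 258 to 561 TPM under the control label. In the authors' deposited table their median was -0.17, with 2 of the 8 positive. Of the other lists, the endothelial sum was also lower by label without overlap, at 5.79 to 7.26 against 7.48 to 8.42 TPM. Only 2 of its 8 genes were tested, and its ranges would overlap with PLX5622 3 and control 3 exchanged. Oligodendrocyte markers were lower in 7 of 8 genes (median -0.11) with overlapping sums, and oligodendrocyte precursor markers higher in 5 of 6 (median 0.32). The part of neuronal, ependymal, choroid plexus, endothelial or oligodendrocyte RNA in the Asns difference was not tested. In bulk RNA of this kind, fewer cells of a type and less RNA per cell cannot be told apart.

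Psat1 differed in the other direction. Libraries labelled PLX5622 1, 2 and 3 held 535, 578 and 585 TPM, and those labelled control 1, 2 and 3 held 276, 502 and 377 TPM. All PLX5622 libraries were above all control libraries, but control 2 was close to PLX5622 1. With PLX5622 3 (585 TPM) and control 3 (377 TPM) exchanged, the groups would overlap. The means by label were 566 ± 27.3 and 385 ± 113 TPM (SD, n = 3 each), a ratio of 1.47. The log2 difference was 0.59 ± 0.20 (SE, 95% interval 0.15 to 1.04; limma adjusted p = 0.205). It was 0.38 without the library labelled control 1 (limma adjusted p = 0.381), and 0.81 without that labelled control 2, where it was called (limma adjusted p = 0.00275; 28.7% of all genes called). Without the libraries labelled control 3 and PLX5622 3 it was 0.58 ± 0.30 (limma adjusted p = 0.855). The authors' deposited table gave 0.10 (SE 0.26, p = 0.696).

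Psat1 was lowest in the same libraries in which long transcripts were low. Across genes, log transcript length correlated with a library's deviation from the 6-library mean at r = -0.439 (control 1) and r = -0.422 (control 3), and at r = 0.214 to 0.394 in the remaining 4 libraries. These are descriptions over genes that share a library. After a loess correction on transcript length the Psat1 difference was 0.48 ± 0.15 (limma adjusted p = 0.164) and the Asns difference -0.79 ± 0.16 (limma adjusted p = 0.162). Astrocyte markers were also higher by label: 12 genes summed to 38671 to 42960 TPM under the PLX5622 label and 24334 to 34032 TPM under the control label. All 12 had positive differences by label, with a median of 0.50, and none was at 0. In the authors' deposited table their median was 0.11, with 9 of the 12 positive. With control 3 (29727 TPM) and PLX5622 3 (42960 TPM) exchanged, the sums would overlap. By label, Glul, glutamine synthetase, differed by 0.62 and Aldoc, a glycolytic aldolase, by 0.36. The part of the astrocyte share in the Psat1 difference was not tested.

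**Figure D2:**
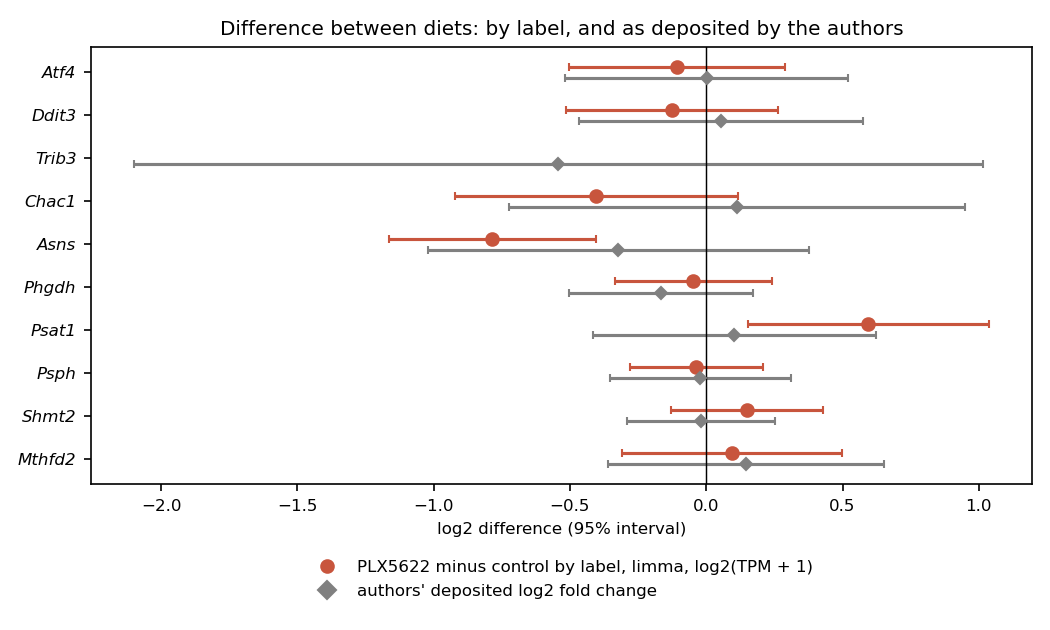
Log2 difference with its 95% interval (x axis) for each gene (y axis): red circles, PLX5622 minus control by label from limma on log2(TPM + 1); grey diamonds, the authors' deposited log2 fold change. By label the intervals of Asns (-1.16 to -0.41) and Psat1 (0.15 to 1.04) exclude 0 before adjustment, the authors' intervals of all 10 genes include 0, and Trib3 has no value by label because its mean is under 1 TPM.

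The enzymes on either side of Psat1 in the serine pathway did not separate by label. Phgdh had 1100, 934.7 and 1056 TPM under the PLX5622 label, and 1135, 1061 and 994 TPM under the control label. These ranges overlapped, and the log2 difference was -0.05 ± 0.13 (SE, 95% interval -0.33 to 0.24; limma adjusted p = 0.828). Psph was at 143, 140 and 142 TPM under the PLX5622 label and at 146, 137 and 153 TPM under the control label. Its log2 difference was -0.04 ± 0.11 (SE, 95% interval -0.28 to 0.21; limma adjusted p = 0.845), and it varied least of the tested genes, over 0.15 on the log2 scale. The ratio of Psat1 to Phgdh TPM was 0.486, 0.619 and 0.554 under the PLX5622 label and 0.243, 0.473 and 0.380 under the control label, so that the PLX5622 libraries were higher without overlap. This ratio carries the Psat1 values, which separated by label themselves, so it is not a further result. With PLX5622 3 and control 3 exchanged, its ranges would overlap. Phgdh differed by -0.11 ± 0.27 and Psph by 0.00090 ± 0.24 (log2, SE) with PLX5622 3 and control 3 left out. In the authors' deposited table Phgdh was at -0.17 (SE 0.17) and Psph at -0.02 (SE 0.17).

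Counting could mix reads for some of these genes. Phgdh has 19 other annotated transcript genes with at least 90% identity over at least 300 bases, up to 98.7%, most of them with names of predicted genes. Of these, 2 were in the TPM table, with at most 0.179 TPM. The libraries were not stranded, and the exons of Psph overlap those of Cct6a, a chaperonin subunit, over 452 bases on the opposite strand. Cct6a reached 161 TPM in its highest library, and Psph 153 TPM. Ddit3 overlaps Mars, a tRNA synthetase, over 68 bases and Shmt2 overlaps Ndufa4l2 over 32 bases in the same way, so reads there cannot be assigned to one gene. Psat1 has 1 similar copy, which was not in the table.

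Downstream of serine, Shmt2 and Mthfd2 act in mitochondrial one-carbon metabolism. Shmt2, which turns serine into glycine and passes a carbon to folate, was at 46.6, 42.7 and 48.5 TPM under the PLX5622 label and at 37.2, 43.9 and 43.0 TPM under the control label. The groups overlapped, and the log2 difference was 0.15 ± 0.12 (SE, 95% interval -0.13 to 0.43; limma adjusted p = 0.445). Mthfd2, a methylenetetrahydrofolate dehydrogenase, was at 5.41, 9.09 and 6.54 TPM under the PLX5622 label and at 6.24, 5.96 and 6.99 TPM under the control label. Its highest and lowest values were both under the PLX5622 label, and the difference was 0.09 ± 0.18 (limma adjusted p = 0.752). With PLX5622 3 and control 3 left out, Shmt2 differed by 0.14 ± 0.25 and Mthfd2 by 0.18 ± 0.29 (log2, SE). The authors' deposited table gave Shmt2 -0.02 (SE 0.14) and Mthfd2 0.15 (SE 0.26).

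Atf4 itself and Ddit3, the stress transcription factor also known as Chop, varied between libraries more than between diets. Atf4 had 136, 193 and 159 TPM under the PLX5622 label (libraries 1, 2 and 3), and 198, 139 and 192 TPM under the control label. Ddit3 was at 69.9, 95.5 and 63.8 TPM under the PLX5622 label and at 93.5, 70.7 and 83.7 TPM under the control label. For both genes the libraries labelled PLX5622 2, control 1 and control 3 were the 3 highest, a grouping that cuts across the diet labels. The same 3 libraries were highest for Cebpb, a C/EBP factor chosen after its values were seen: 9.55, 13.1 and 8.18 TPM under the PLX5622 label and 15.9, 9.24 and 16.8 TPM under the control label. Cebpg, another C/EBP factor also chosen after its values were seen, did not share this grouping. Its 3 highest libraries were PLX5622 3 (25.07 TPM), PLX5622 2 and control 3, with control 1 at 22.01 TPM. Long transcripts were low in control 1 (r = -0.439) and control 3 (r = -0.422), but not in PLX5622 2 (r = 0.214). The part of transcript length in the order of the libraries was not tested. The log2 difference by label was -0.11 ± 0.18 in Atf4 (SE, 95% interval -0.50 to 0.29; limma adjusted p = 0.704). In Ddit3 it was -0.12 ± 0.17 (SE, 95% interval -0.51 to 0.26; limma adjusted p = 0.656). Leaving out PLX5622 3 and control 3 gave -0.03 ± 0.27 in Atf4 and 0.0063 ± 0.26 in Ddit3. Atf4 in the authors' deposited table was at 0.0010 (SE 0.27) and Ddit3 at 0.05 (SE 0.27).

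Chac1, which breaks down glutathione, and Trib3, a pseudokinase that restrains Atf4, are Atf4 targets of low level here. Chac1 was at 2.97, 1.54 and 1.10 TPM under the PLX5622 label and at 2.08, 3.23 and 2.75 TPM under the control label. Both lowest values were under the PLX5622 label, but PLX5622 1 exceeded control 1 and control 3. The log2 difference was -0.40 ± 0.23 (SE, 95% interval -0.92 to 0.12; limma adjusted p = 0.297). Leaving out PLX5622 3 and control 3 gave -0.18 ± 0.28, and the authors' deposited table gave Chac1 0.11 (SE 0.43). Trib3 was at 0.179, 0.0787 and 0.116 TPM under the PLX5622 label and at 0.123, 0.306 and 0.134 TPM under the control label. It was below the minimum of 1 TPM and was not tested. The authors' deposited table gave it a mean normalized count of 6.71 and a log2 fold change of -0.54 (SE 0.79), against a mean normalized count of 75.5 for Chac1.

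**Figure D3:**
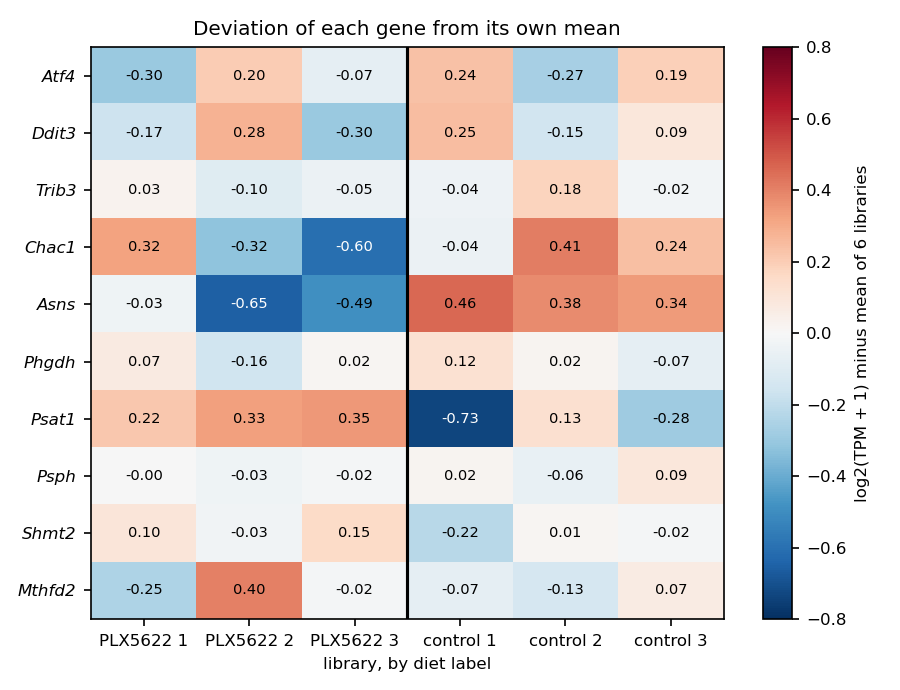
Deviation of log2(TPM + 1) from the gene's mean over the 6 libraries (colour and printed value), with genes in rows and libraries in columns, PLX5622 label left of the line and control label right of it. Atf4 and Ddit3 are above their means in PLX5622 2, control 1 and control 3; Psat1 is lowest in control 1 (-0.73) and Asns in PLX5622 2 (-0.65).

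Genes with the most similar profile over the 6 libraries were sought among 7742 genes averaging 10 TPM or more, by the root mean square (RMS) difference of centred log2(TPM + 1) values. For Atf4 they were Ak6 (RMS 0.0495), Ifrd1 (RMS 0.0523) and Smarcd2 (RMS 0.0610). Ifrd1 was at 78.0, 109 and 88.4 TPM under the PLX5622 label and at 101, 77.7 and 105 TPM under the control label, with the same 3 libraries highest. For Phgdh they were Tkt (RMS 0.0250), Maged2 (RMS 0.0329) and Rnh1 (RMS 0.0373). With 6 libraries and this many candidates, close profiles are a description only.

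The kinases that phosphorylate eIF2, the subunits of its phosphatase, and eIF2 with its exchange factor eIF2B lie upstream of Atf4. By label, limma called 0 of these 14 genes. At an unadjusted p under 0.05, 3 were higher and 0 lower, beside 14.7% and 8.02% of all tested genes. The median difference was 0.17 with 9 positive, against 0.09 over all tested genes, and 0.05 after the loess correction on transcript length. It was 0.27 without the library labelled PLX5622 1, 0.07 without that labelled control 1, and 0.17 with PLX5622 3 and control 3 left out. Eif2ak1, the heme-regulated kinase, was at 69.4, 75.6 and 69.9 TPM under the PLX5622 label and at 59.3, 73.4 and 65.2 TPM under the control label, with overlap. Eif2s2, the beta subunit of eIF2, differed by 0.28 ± 0.14 (log2, SE; limma adjusted p = 0.250). Groups did not overlap in 4 genes with higher values and 1 with lower values, beside 19.4% and 9.39% of all tested genes. Among these, chosen after their values were seen, were Eif2ak3 (Perk, the kinase of ER stress), with 11.7, 10.9 and 11.9 TPM under the PLX5622 label and 4.49, 10.8 and 6.80 TPM under the control label, and Eif2ak4 (Gcn2, the sensor of amino acid lack). Eif2ak4 was at 4.61, 4.94 and 5.24 TPM under the PLX5622 label and at 3.01, 4.25 and 3.56 TPM under the control label. The authors' deposited table had them at 0.09 (SE 0.33) and 0.03 (SE 0.23).

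Of 16 other Atf4-linked genes of stress and biosynthesis, 12 reached a mean of 1 TPM and limma called 0 by label. At an unadjusted p under 0.05, 3 were higher and 0 lower, beside 14.7% and 8.02% of all tested genes. Their median difference was 0.04 with 6 positive. It was 0.09 with PLX5622 3 and control 3 left out, and its sign turned without the library labelled control 2 (-0.02) and with size-factor scaling (-0.05). Ddit4, an inhibitor of mTORC1 signalling, was at 136, 290 and 258 TPM under the PLX5622 label and at 178, 130 and 221 TPM under the control label, with overlap. Nupr1, a stress-induced chromatin protein, differed by -0.15 ± 0.13 (log2, SE; limma adjusted p = 0.478). The 3 with groups that did not overlap, chosen after their values were seen, were Gpt2, Cth and Sesn2, all higher under the PLX5622 label, as were 19.4% of all tested genes. Gpt2, a mitochondrial alanine aminotransferase, was at 84.0, 125 and 96.5 TPM under the PLX5622 label and at 44.5, 74.8 and 67.0 TPM under the control label, a difference of 0.72 ± 0.21 (log2, SE; limma adjusted p = 0.205). Gpt2 in the authors' deposited table was at 0.33 (SE 0.30), Cth, cystathionine gamma-lyase, at 0.19 (SE 0.25) and Sesn2, a leucine sensor, at 0.13 (SE 0.37). Fgf21 was listed at 0 in all 6 libraries.

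Among 9 Atf4-linked amino acid transporters limma called 0 by label, with 3 higher and 1 lower at an unadjusted p under 0.05, beside 14.7% and 8.02% of all tested genes. The median difference was 0.07 with 8 positive, and 0.13 with 8 positive when PLX5622 3 and control 3 were left out. After the loess correction on transcript length it was -0.03 with 4 positive, and with size-factor scaling 0.0067 with 5 positive. Leaving out 1 library gave 0.04 (without PLX5622 1) to 0.18 (without control 2). Slc3a2, the heavy chain shared by several transporters, was at 218, 210 and 229 TPM under the PLX5622 label and at 213, 202 and 224 TPM under the control label. These ranges overlapped. Slc1a4, a carrier of serine and other neutral amino acids, was at 126, 129 and 141 TPM under the PLX5622 label and at 72.5, 121 and 92.8 TPM under the control label. Its difference was 0.49 ± 0.18 (log2, SE; limma adjusted p = 0.205), and 0.03 (SE 0.24) in the authors' deposited table. Slc7a11, the cystine and glutamate exchanger, and Slc38a2, a glutamine and alanine carrier, also had groups that did not overlap. Their differences were 0.59 ± 0.17 and 0.58 ± 0.18 (log2, SE; limma adjusted p = 0.205 for each). The authors' deposited table had them at 0.18 (SE 0.26) and 0.10 (SE 0.28). Over all tested genes 19.4% had higher values without overlap and 9.39% lower values. Slc7a3, a carrier of cationic amino acids, was the one with lower values, at 2.08, 1.64 and 2.02 TPM under the PLX5622 label and 2.81, 2.97 and 2.83 TPM under the control label. In the authors' deposited table it was at -0.32 (SE 0.31). The last 3 genes were chosen after their values were seen.

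Of 12 enzymes of serine use and one-carbon metabolism limma called 0 by label, with 2 higher and 1 lower at an unadjusted p under 0.05, beside 14.7% and 8.02% of all tested genes. The median difference was 0.14 with 8 positive (0.14 with PLX5622 3 and control 3 left out), 0.06 with size-factor scaling, and 0.01 with 6 positive after the loess correction on transcript length. Cbs, cystathionine beta-synthase, which joins serine to homocysteine, was at 298, 276 and 328 TPM under the PLX5622 label and at 185, 255 and 199 TPM under the control label, without overlap. Its difference was 0.50 ± 0.15 (log2, SE; limma adjusted p = 0.205), and -0.03 (SE 0.23) in the authors' deposited table. Ptdss1, phosphatidylserine synthase, differed by 0.29 ± 0.14 (limma adjusted p = 0.236). Sds, serine dehydratase, was at 4.23, 4.82 and 4.95 TPM under the PLX5622 label and at 3.13, 2.66 and 2.72 TPM under the control label, and was chosen after its values were seen. Its limma adjusted p was 0.205, and the authors' deposited table had it at 0.09 (SE 0.34). Groups did not overlap in 5 of the 12 with higher values and 1 with lower values, beside 19.4% and 9.39% of all tested genes. The authors' deposited table called none of the 10 genes or of the genes of these 4 lists, and 0.0698% of its 20062 genes.

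**Figure D4:**
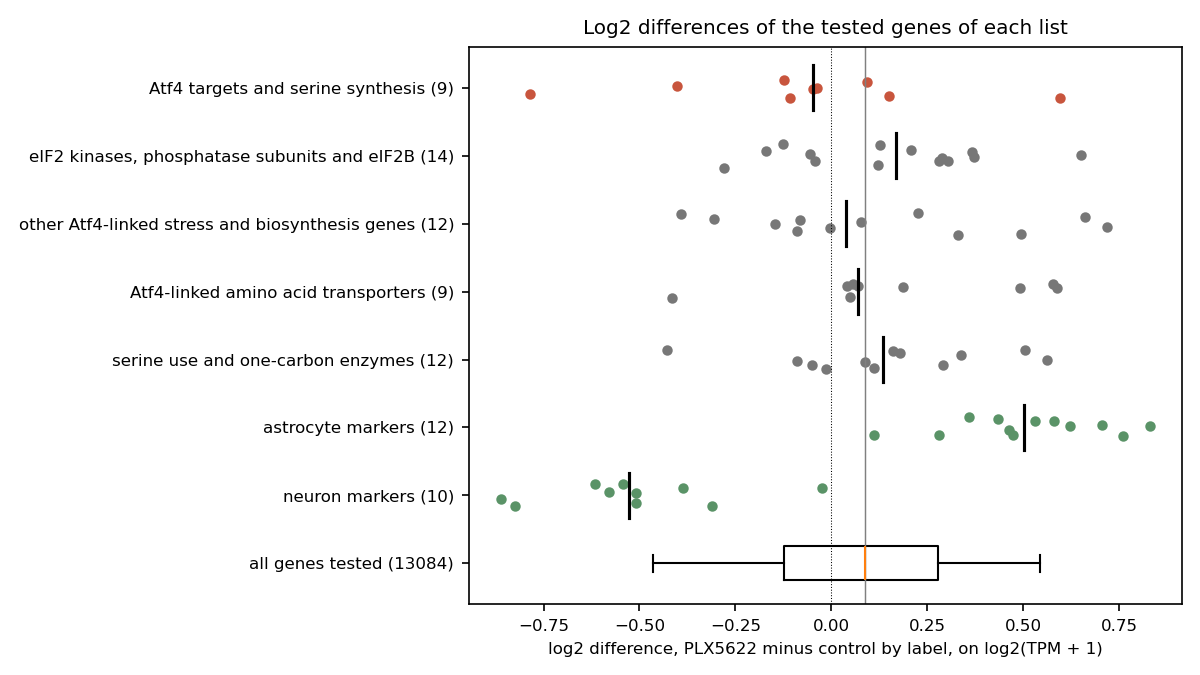
Log2 difference by label on log2(TPM + 1) (x axis) of each tested gene (points; vertical scatter carries no value) by list, with the number tested in brackets; black bars are list medians, and the box shows the quartiles of all 13084 genes with whiskers from their lowest to highest 5% and a grey line at their median of 0.09. The 9 tested genes of Atf4 targets and serine synthesis centre at -0.05, with Asns (-0.78) and Psat1 (0.59) at the ends, while astrocyte markers centre at 0.50 and neuron markers at -0.53.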

How the data were processed

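Ribosome-bound polyA RNA was made into non-stranded libraries, per the labels' protocols. Build mm39 and the tools R 4.1.0, DESeq2 1.32.0, Subread 2.0.1 (featureCounts) and STAR 2.7.10a are named in the submitters' processing notes, without annotation or filters. The TPM values were made by the authors and each library sums to 1000000. The authors' second table holds, per the file headers, a baseMean signal (mean of normalized counts), log2 fold changes with standard errors, a test statistic score, and raw and adjusted p-values. TPM keeps no counts, so limma 3.58.1 in R 4.3.3, with a mean-variance trend, was fitted on log2(TPM + 1) for 13084 genes averaging 1 TPM or more, two-sided, with Benjamini-Hochberg adjustment over all of them and a threshold of 0.05. Fold changes on this scale understate low genes. Transcript lengths came from GENCODE exons (GRCm38, 97.8% of tested genes) or else from the ratio of baseMean to TPM, and similar copies from BLAST+ 2.17.0. The genes and lists were chosen with earlier results of these data known, and no list was tested. Named were all 10 genes, from each pathway list called genes or otherwise the 2 of highest mean TPM, profile neighbours, and genes said to be chosen after seeing values. Alternatives were other pseudocounts, filters and scaling, libraries left out, a replicate block and a length correction. Limma p-values weigh the difference by label against the spread between libraries within a label, and so rest on the labels as given. The fit was tested on simulated data.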

Additional observations from a re-analysis of the deposited data

How the results depend on the processing

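The counts of genes called by label were 0 over all genes, 0 among the 10 and 0 in the other pathway lists under pseudocounts of 0.1 and 5, no filter, size-factor scaling and the length correction. Leaving out 1 library gave 0 to 3754 genes over all, 0 to 2 among the 10 and 0 to 16 in the lists, with the highest counts without the library labelled control 2; without that labelled PLX5622 1, 36 genes were called. Without the libraries labelled control 3 and PLX5622 3, 14 genes were called, none of them among the 10. The cause was not tested. The differences of Asns (-0.96 to -0.65), Psat1 (0.38 to 0.81), Chac1 (-0.66 to -0.17) and Shmt2 (0.06 to 0.20) kept their sign under all 13 alternatives. None of the 13 exchanged the headings of control 3 and PLX5622 3. In the authors' deposited table Asns (-0.32) and Psat1 (0.10) had the same sign, but Chac1 (0.11) and Shmt2 (-0.02) the opposite sign. Under the alternatives, small differences turned sign. Over single libraries left out, Atf4 ranged from -0.27 to 0.012 (above 0 without PLX5622 1), Phgdh from -0.096 to 0.022 (above 0 without PLX5622 2, and 0.0012 without control 1) and Mthfd2 from -0.086 to 0.24 (below 0 without PLX5622 2). Psph ranged from -0.076 to 0.0010 (above 0 without control 3), and was at 0.00090 without the libraries labelled control 3 and PLX5622 3, where Ddit3 was at 0.0063; Ddit3 was at 0.0019 after the length correction. Libraries with the same number did not deviate together (r = -0.033, -0.272 and -0.147 across genes), and with the replicate number as a block 0 genes were called, with Asns at -0.78 (limma adjusted p = 0.159) and Psat1 at 0.59 (limma adjusted p = 0.189).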
